A study of Mus musculus with 8 samples.

Results

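The T cell receptor complex and T-cell genes were followed in hepatic macrophage RNA from mice with acetaminophen liver injury. The set was fixed by name as 9 genes, Cd3d, Cd3e, Cd3g, Cd5, Cd8a, Cd2, Cd28, Lck and Tcf7, out of 22180 genes measured in the series. A gene was taken from array rows that carried its symbol alone. By that rule 7 of the 9 had a row, 1 each, and array levels of Lck and Tcf7 were not analysed here. Each of the 8 samples was hybridised to an Affymetrix array, 4 from mice given recombinant transferrin (rTF, 25 µg) and 4 from mice given recombinant CPS1 (rCPS1, 50 µg). CPS1 is the carbamoyl phosphate synthetase of the urea cycle, held in hepatocyte mitochondria, and transferrin is the iron carrier of plasma. All mice were male FVB/N animals aged 8 weeks, which received the protein through the tail vein and 12 h later 350 mg/kg acetaminophen into the peritoneum. The injected protein and its amount differ together between the groups, and no group without protein or without acetaminophen was analysed here.

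T cells recognise peptide on MHC molecules through the T cell receptor, whose antigen-binding chains have almost no cytoplasmic part of their own. The signal is carried into the cell by the CD3 chains (the products of Cd3d, Cd3e and Cd3g, together with the zeta chain of Cd247), whose tyrosine motifs are phosphorylated by the kinase LCK and then bind the kinase ZAP70. CD8 and CD4 hold LCK at the receptor, CD28 and CD2 add costimulation and adhesion, and CD5 dampens the signal. The liver harbours T cells and natural killer (NK) cells in its sinusoids beside its resident macrophages, the Kupffer cells. RNA of T-cell genes in a macrophage preparation can therefore be read only as the level in the whole preparation. In such bulk samples fewer T cells and less RNA per T cell cannot be told apart.

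Cd3g and Cd3d are neighbours that are read away from each other, with starts 1355 bases apart, and Cd3e lies on the same chromosome with its start 27825 bases from that of Cd3d. The 250 bases before the start of each CD3 gene and of Cd5 are shown (RefSeq, build GRCm38.p6, strand of the gene). Whether these sequences bear on the array levels was not tested. The Cd3d window is chr9:44981536-44981785 (+ strand), Cd3e chr9:45009612-45009861 (- strand), Cd3g chr9:44980432-44980681 (- strand) and Cd5 chr19:10738975-10739224 (- strand). Capitals mark matches on either strand to any of 5 short motifs. The core bound by ETS factors was searched as AGGAAG. For the TCF and LEF family the letters were CTTTGA. For RUNX factors they were TGTGGT, and for GATA factors AGATAA. The E-box read by E proteins was searched as CACCTG. None of these 5 motifs contains another, and no capitals overlap in these windows.

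Cd3d promoter: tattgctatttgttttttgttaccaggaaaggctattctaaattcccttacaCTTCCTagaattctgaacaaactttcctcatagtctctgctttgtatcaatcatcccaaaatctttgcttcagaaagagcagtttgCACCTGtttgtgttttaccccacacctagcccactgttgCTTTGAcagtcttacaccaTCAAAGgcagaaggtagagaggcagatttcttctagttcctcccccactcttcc
Cd3e promoter: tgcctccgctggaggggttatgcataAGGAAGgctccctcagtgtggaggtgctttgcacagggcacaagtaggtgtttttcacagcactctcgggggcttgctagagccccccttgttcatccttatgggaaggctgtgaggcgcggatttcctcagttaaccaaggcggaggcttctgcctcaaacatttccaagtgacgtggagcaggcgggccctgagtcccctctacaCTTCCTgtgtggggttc
Cd3g promoter: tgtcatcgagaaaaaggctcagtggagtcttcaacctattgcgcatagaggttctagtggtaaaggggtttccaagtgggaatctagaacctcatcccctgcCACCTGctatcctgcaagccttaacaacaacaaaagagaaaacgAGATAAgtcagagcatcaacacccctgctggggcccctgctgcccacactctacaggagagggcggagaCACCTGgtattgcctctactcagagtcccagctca
Cd5 promoter: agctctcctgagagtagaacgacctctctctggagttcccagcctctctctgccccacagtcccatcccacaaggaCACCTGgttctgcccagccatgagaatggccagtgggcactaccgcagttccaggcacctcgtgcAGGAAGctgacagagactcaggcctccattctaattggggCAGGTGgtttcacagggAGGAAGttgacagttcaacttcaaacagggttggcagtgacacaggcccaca

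The ETS core was found in the windows of Cd3d (1 match), Cd3e (2) and Cd5 (2), and in 29.5% of all 32851 promoter windows of this length. The E-box was found in those of Cd3d (1), Cd3g (2) and Cd5 (2), and in 17.2% of all windows. The Cd3d window alone among the 4 held the TCF and LEF core, with 2 matches (13.8% of all windows), and the Cd3g window alone the GATA core, with 1 (9.99%). The RUNX core, in 14% of all windows, was in none of the 4. No single one of these 5 motifs was shared by all 4 windows. The windows of Cd8a and Tcf7 held none of them, and Cd2 and Cd28 were not searched. For Lck, window 1 held 3 matches to the ETS core and 1 to the RUNX core. Its window 2 held 1 match each to the ETS core and the E-box. A match is a run of letters and not a measured binding site.

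On the arrays, every measured member averaged lower with rCPS1 than with rTF, by 0.28 to 0.77 on the log2 scale, but none of the differences passed the test over all genes. Much of the difference came with 1 array: all 7 members had their highest value of the 8 arrays in rTF replicate 2. Without that array the 7 differences shrank to between -0.43 and -0.11, still all below 0. Leaving out the highest array of a group must lower the mean of that group, so the direction of this change was fixed in advance. Values are log2 expression levels made by RMA, a routine that corrects background, brings arrays to a common distribution and summarises the probes of a row. A difference of 1 is thus a doubling. The arrays carry no detection calls, so a low level cannot be read as absence, and levels of different genes cannot be compared.

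The sample label was set against macrophage markers. The mean of 14 Kupffer cell and macrophage genes lay between 9.34 and 10.01 on the 8 arrays (log2 level). Clec4f, a lectin receptor of Kupffer cells, ranged from 9.11 to 10.25, and Csf1r, the receptor for macrophage colony-stimulating factor, from 10.24 to 10.88. Array medians lay between 3.55 and 3.68. The mean of 11 sinusoidal endothelial genes lay between 11.23 and 11.56, and that of 12 hepatocyte genes between 7.04 and 7.79. Levels of different genes cannot be compared, so these values do not measure the macrophage share of a preparation. A principal component analysis of all array rows set rTF replicate 2 apart, with a score of 78.3 on the leading component (21.5% of the variance) and scores of -36.0 to 7.45 elsewhere. Every title names Mouse1 with a replicate number, so the labels leave unsettled whether replicates came from separate mice. The p-values therefore refer to the spread between these 8 samples alone, and that spread may be technical.

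Among the CD3 chains, Cd3e (probe set 17526464), whose product pairs with both the delta and the gamma chain, had log2 levels of 8.08, 9.73, 8.41 and 8.46 in rTF replicates 1 to 4. With rCPS1 they were 8.54, 8.13, 8.35 and 7.71. Of the rCPS1 arrays, replicate 1 lay above rTF replicates 1, 3 and 4, replicates 2 and 3 lay among them, and replicate 4 lay below every rTF array. The group means were 8.67 ± 0.73 (SD, n = 4) and 8.18 ± 0.36 (SD, n = 4), a difference of -0.49 ± 0.33 (SE) with a 95% interval from -1.22 to 0.24 (limma adjusted p = 0.98). In rTF replicate 2 Cd3e stood 1.19 above the next highest array, which was rCPS1 replicate 1.

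Cd3g (probe set 17526456), the gamma chain, was at 7.33, 9.15, 7.67 and 8.07 with rTF and at 7.70, 7.30, 7.73 and 7.14 with rCPS1. Both rTF replicate 1 and rTF replicate 3 lay within the rCPS1 range. The means were 8.06 ± 0.79 (SD, n = 4) and 7.47 ± 0.30 (SD, n = 4), and the difference was -0.59 ± 0.34 (SE; interval -1.35 to 0.17). Cd3d (probe set 17516691), the delta chain, was at 3.64, 5.40, 4.77 and 4.77 with rTF and at 4.55, 4.20, 4.19 and 3.84 with rCPS1. It differed from the other members in its low end: rTF replicate 1 was the lowest of all 8 arrays, while the other 3 rTF arrays lay above every rCPS1 array. Its means were 4.64 ± 0.73 (SD, n = 4) and 4.20 ± 0.29 (SD, n = 4), a difference of -0.45 ± 0.32 (SE; interval -1.16 to 0.26).

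Cd5 (probe set 17362753), the scavenger receptor family protein that restrains T cell receptor signals, had the widest gap. Its levels were 5.59, 7.52, 6.32 and 6.48 with rTF and 5.88, 5.71, 5.80 and 5.42 with rCPS1. In 3 of the 4 rTF arrays Cd5 lay above every rCPS1 array, and rTF replicate 1 lay within the rCPS1 range, so the groups overlapped. The means were 6.48 ± 0.79 (SD, n = 4) and 5.70 ± 0.20 (SD, n = 4), which is 1.71-fold lower with rCPS1, a log2 difference of -0.77 ± 0.33 (SE; interval -1.51 to -0.035). It was the only member with an unadjusted p under 0.05 in limma, 1 of 7, against 2.79% of all genes in that direction. Its adjusted p was 0.98, and a two-sided exact permutation test over the 70 assignments of arrays gave p = 0.114 (0.993 adjusted over all genes), where 0.0286 is the smallest that 4 against 4 allows.

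**Figure D1:**
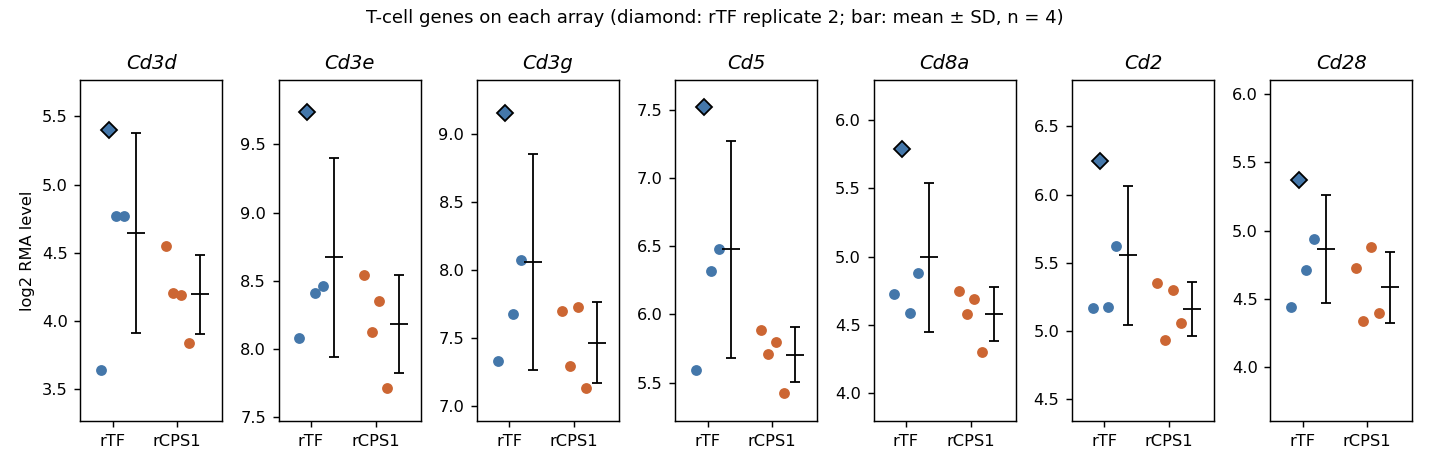
Log2 RMA level (vertical axes, each spanning the same 2.5 log2 units) of the 7 measured T-cell genes on the 4 rTF and 4 rCPS1 arrays, 1 point per array, with the mean ± SD (n = 4) as a bar. The diamond, rTF replicate 2, is the highest point for every gene, and the ranges of the groups overlap for every gene. For Cd3d, rTF replicate 1 lies below all rCPS1 points and the other rTF points lie above them.

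Cd8a (probe set 17459482) encodes the alpha chain of CD8, the coreceptor of cytotoxic T cells that some dendritic cells also carry. It was at 4.72, 5.79, 4.58 and 4.88 with rTF and at 4.75, 4.58, 4.69 and 4.30 with rCPS1. Apart from rTF replicate 2 and rCPS1 replicate 4, the arrays of both groups lay within 4.58 to 4.88. The difference of means was -0.42 ± 0.24 (SE; interval -0.96 to 0.13).

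Cd2 (probe set 17408497), an adhesion and costimulatory receptor of T and NK cells, was at 5.17, 6.25, 5.18 and 5.62 with rTF and at 5.35, 4.94, 5.30 and 5.06 with rCPS1. Replicates 2 and 4 of rTF lay above all rCPS1 arrays, and the other rTF arrays lay among them. Its difference was -0.39 ± 0.23 (SE; interval -0.91 to 0.12). Cd28 (probe set 17213462), the receptor for the B7 costimulatory ligands, was at 4.44, 5.37, 4.71 and 4.94 with rTF and at 4.73, 4.34, 4.88 and 4.40 with rCPS1. Its difference of -0.28 ± 0.21 (SE; interval -0.74 to 0.18) was the smallest of the 7, and 2 rCPS1 arrays exceeded rTF replicate 3. For Cd3d, Cd3e, Cd3g, Cd8a, Cd2 and Cd28 the exact permutation p ran from 0.171 to 0.343.

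With limma, 0 of the 7 members and 0 of 22180 genes (0%) had an adjusted p under 0.05. At an unadjusted p under 0.05 the series held 619 lower genes (2.79%) and 416 higher genes (1.88%). The exact permutation test over all genes gave no adjusted p below 0.978. The median log2 difference of the 7 members was -0.45, against -0.018 over all genes, and 7 of 7 members were lower, against 54.4% of all genes. The members share their arrays, so their common direction counts 1 pattern rather than 7. None of the 7 had groups that did not overlap, against 1.97% of all genes with every rCPS1 array below every rTF array.

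The common pattern was clearest as each gene's deviation from its own mean over the 8 arrays. In rTF replicate 2 the 7 deviations ran from 0.65 (Cd28) to 1.43 (Cd5), with a mean of 1.09. Against the other 3 rTF arrays that array was 2.75-fold higher for Cd3g, 2.67-fold for Cd3e, 2.62-fold for Cd5, 2.08-fold for Cd8a, 2.01-fold for Cd3d, 1.90-fold for Cd2 and 1.6-fold for Cd28. It was the highest of the 8 arrays for 7 of 7 members, against 19.9% of all genes. The array rTF replicate 1, of the same group, was below the gene's own mean for all 7 members, by 0.063 (Cd8a) to 0.78 (Cd3d). In rCPS1 replicate 4 all 7 deviations were negative as well, from -0.71 (Cd3e) to -0.30 (Cd2), and that array was the lowest for 4 members, Cd3e, Cd3g, Cd5 and Cd8a. The lowest array was rCPS1 replicate 2 for Cd2 and Cd28. The SD was larger with rTF than with rCPS1 for 7 of 7 members, against 54.3% of all genes. It was larger for 4 of 7 when rTF replicate 2 was left out, where the share of all genes was not computed.

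**Figure D2:**
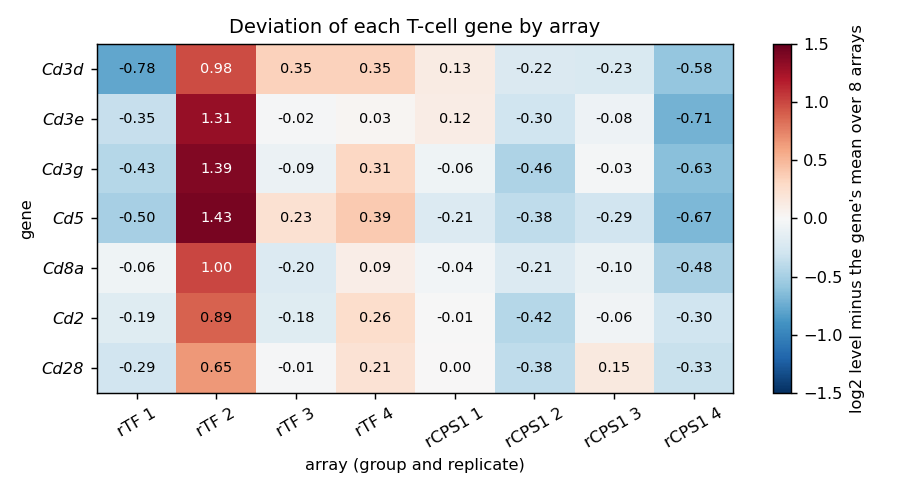
Deviation of each gene's log2 level from its own mean over the 8 arrays, with genes as rows, arrays as columns and the value printed in each cell. The column of rTF replicate 2 is the only one with large positive values in all rows (0.65 to 1.43), and rTF replicate 1 and rCPS1 replicates 2 and 4 are negative in all rows.

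Over the 8 arrays the 21 pairs of members correlated with Pearson r between 0.77 (Cd3d and Cd8a) and 0.98 (Cd3g and Cd2), with a median of 0.92. The Spearman rho ran from 0.52 to 0.98. Without rTF replicate 2 the Pearson r over the remaining 7 arrays was between 0.45 (Cd3d and Cd8a) and 0.95 (Cd3g and Cd28), with a median of 0.78, and positive for 21 of 21 pairs. The joint movement was thus also present among the other arrays. These correlations describe arrays that each carry 1 preparation, shared by all genes, and no test is attached to them.

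Without rTF replicate 2, 3 rTF arrays were set against 4 rCPS1 arrays. The differences were then -0.13 ± 0.20 (SE) for Cd3e, -0.23 ± 0.21 for Cd3g, -0.20 ± 0.29 for Cd3d, -0.43 ± 0.22 for Cd5, -0.15 ± 0.14 for Cd8a, -0.16 ± 0.16 for Cd2 and -0.11 ± 0.18 for Cd28. In fold terms Cd5 was 1.34-fold lower and the others 1.08-fold to 1.17-fold lower. Their median was -0.16, and the median over all genes was -0.0097. No member had an unadjusted p under 0.05, and 0 genes of the series had an adjusted p under 0.05 in limma. The 95% interval of Cd3e, from -0.59 to 0.33, leaves differences between these bounds unresolved. Leaving out rTF replicate 1 instead moved the median to -0.68, and 3 members, Cd3d, Cd3g and Cd5, then had an unadjusted p under 0.05 but adjusted p of 0.707, 0.879 and 0.707 (limma). In that fit 7 of 7 members were lower, against 53% of all genes, and 3.21% of all genes were lower and 2.39% higher at an unadjusted p under 0.05.

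**Figure D3:**
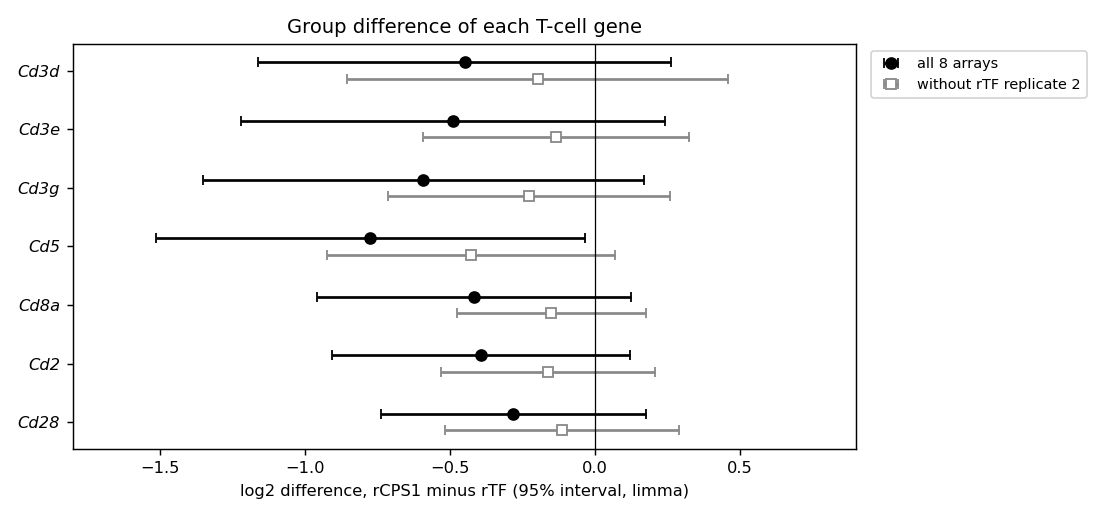
Log2 difference, rCPS1 minus rTF, of each T-cell gene with its 95% interval from limma, over all 8 arrays (filled circles) and without rTF replicate 2 (open squares). All points lie below 0, and only the Cd5 interval over all 8 arrays (-1.51 to -0.035) does not reach 0.

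Other genes of T cells were taken from 5 lists of surface receptors, signalling proteins, transcription factors, homing and survival genes and effector genes, 81 genes in all, of which 75 were measured. Of these 62 were lower and 13 higher with rCPS1 (82.7% lower, against 54.4% of all genes), with a median log2 difference of -0.26. None passed the adjusted test in limma. Every rCPS1 array lay below every rTF array for 5 of the 75 (against 1.97% of all genes), and above for 1 (against 0.947%). At an unadjusted p under 0.05, 9 were lower (12.0%, against 2.79% of all genes) and 1 was higher (against 1.88%). The highest array was rTF replicate 2 for 50 of the 75 (66.7%, against 19.9% of all genes). Without that array 51 of the 75 were lower (68.0%, against 52.5% of all genes), with a median difference of -0.078. At an unadjusted p under 0.05, 4 were then lower and 2 higher, against 2.58% and 1.56% of all genes. Further chains of the T cell receptor itself (Cd247 and the constant regions of the alpha, beta, gamma and delta chains) were not analysed here. The listed genes are not all limited to T cells, and which cells of the preparation gave their RNA was not tested.

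Among the signalling proteins 17 of 20 were lower, with a median difference of -0.30, and 14 of 20 without rTF replicate 2, with a median of -0.10. Zap70, the kinase recruited to phosphorylated CD3 chains, was at 6.0, 6.84, 5.79 and 6.43 with rTF and at 5.98, 5.48, 5.57 and 4.85 with rCPS1. Its difference was -0.79 ± 0.27 (SE), or -0.60 ± 0.26 without rTF replicate 2, and the groups overlapped. Themis, a signalling adaptor of thymocyte selection, was at 4.14, 4.57, 4.02 and 4.31 against 3.58, 3.99, 3.74 and 3.64, so that every rCPS1 array lay below every rTF array. It differed by -0.52 ± 0.15, or by -0.42 ± 0.14 without rTF replicate 2. Sit1, a transmembrane adaptor that dampens receptor signals, differed by -0.40 ± 0.18, or by -0.26 ± 0.16 without that array. All of these had an adjusted p of 0.98 in limma.

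Of the coreceptor and costimulation genes 16 of 20 were lower, with a median of -0.25, and 14 of 20 without rTF replicate 2, with a median of -0.048. Ctla4, the inhibitory counterpart of CD28 found on regulatory and activated T cells, was at 4.15, 6.0, 4.54 and 4.90 with rTF and at 3.96, 4.12, 4.04 and 4.10 with rCPS1. The groups did not overlap, though rTF replicate 1 exceeded the highest rCPS1 array only narrowly. It differed by -0.84 ± 0.32 (SE), or by -0.47 ± 0.17 without rTF replicate 2. Slamf6, a receptor of the SLAM family on lymphocytes, differed by -0.35 ± 0.15, or by -0.30 ± 0.16 without that array.

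Lag3, an inhibitory receptor that binds MHC class II, went the other way. It was at 5.26, 5.20, 5.56 and 5.50 with rTF and at 5.74, 5.87, 5.77 and 5.97 with rCPS1, so that every rCPS1 array lay above every rTF array, as for 0.947% of all genes. The difference was 0.46 ± 0.12 (SE), and 0.40 ± 0.12 without rTF replicate 2, with an adjusted p of 0.923 in limma. Unlike all 7 members, Lag3 was lowest in rTF replicate 2. Cd8b1, the beta chain of CD8, and Cd4 were both highest in rTF replicate 2 (5.92 and 8.35). They differed by -0.35 ± 0.38 and -0.22 ± 0.24, but without that array by 0.056 ± 0.25 and -0.026 ± 0.20.

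Transcription factors of T cells gave 12 of 14 lower genes with a median of -0.16, but 6 of 14 lower genes and a median of 0.0025 without rTF replicate 2. Gata3, which directs helper T cells and innate lymphoid cells, differed by -0.35 ± 0.15 (SE), and by -0.34 without that array. Its groups did not overlap, but only narrowly: the lowest rTF array was at 5.640 and the highest rCPS1 array at 5.625. Runx3, which acts in cytotoxic T cells, differed by -0.45 ± 0.25 and Id3 by -0.32 ± 0.21, or by -0.22 and -0.15 without rTF replicate 2. Foxp3, the factor of regulatory T cells, differed by 0.089 ± 0.17 over all arrays and by 0.27 ± 0.11 without rTF replicate 2. Homing and survival genes were lower in 6 of 9 cases, with a median of -0.15, and in 5 of 9 without rTF replicate 2, with a median of -0.056. Il7r, the receptor chain through which interleukin 7 keeps T cells alive, differed by -0.49 ± 0.20. That difference was -0.35 ± 0.19 once rTF replicate 2 was left out. The groups of Il7r did not overlap, again only narrowly (lowest rTF array 8.12, highest rCPS1 array 8.08). Gata3 and Il7r both had an adjusted p of 0.98 in limma. Il2rb, a receptor chain for interleukins 2 and 15, differed by -0.41 ± 0.29, and Ccr7, the lymph node homing receptor, by -0.37 ± 0.22. Without rTF replicate 2 both differed by -0.17.

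Effector genes were lower in 11 of 12 cases (against 54.4% of all genes), with a median of -0.41. Without rTF replicate 2 they were lower in 12 of 12 (against 52.5%), with a median of -0.25. The added gene was Il2, whose difference moved from 0.0033 ± 0.13 (SE) to -0.010 ± 0.15, at levels of 1.49 to 1.92. That change of sign lies well within the SE. Like Il2, Gzmk (2.35 to 2.86) and Il17a (2.10 to 2.77) lay below every array median, so these counts include dim rows. The pore-forming protein gene Prf1 differed by -0.54 ± 0.25 (SE) and the granule gene Nkg7 by -0.51 ± 0.22. Without rTF replicate 2 these were -0.31 ± 0.20 and -0.27 ± 0.13. The chemokine gene Ccl5 differed by -0.32 ± 0.11, with groups that did not overlap, and by -0.35 ± 0.12 without rTF replicate 2. NK cells also express these 3 genes.

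Markers of other cell types moved with the members in part. The mean of 8 measured NK cell genes peaked at 5.31 in rTF replicate 2. It lay between 4.49 and 4.64 elsewhere in that group and between 4.43 and 4.97 across rCPS1 arrays. Of the NK genes 7 of 8 were lower with rCPS1 (against 54.4% of all genes), with a median of -0.096. Without rTF replicate 2, 2 of 8 were lower (against 52.5%), with a median of 0.020. Some of these rows were dim: Klrb1c (2.53 to 3.44) and Klra9 (1.34 to 3.02) lay below every array median, and Klre1 (2.73 to 4.11) around them. The NK receptor gene Ncr1 differed by -0.52 ± 0.33 (SE), the receptor gene Klri2 by -0.36 ± 0.34 and Klrk1, the gene of NKG2D, by -0.13 ± 0.19. Without rTF replicate 2 these were -0.24, 0.0034 and -0.0038.

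B cell genes did not share that peak. Their mean over 11 genes was 5.84 in rTF replicate 2, within the 5.12 to 5.97 of the other rTF arrays, and 10 of 11 were higher with rCPS1, with a median of 0.16. Cd79a, a signalling chain of the B cell receptor, differed by 0.32 ± 0.30 (SE), the transcription factor gene Ebf1 by 0.35 ± 0.32 and Fcrla by 0.17 ± 0.16 (0.26 without rTF replicate 2). The macrophage list mean was 9.36 in rTF replicate 2, close to the lowest rTF array (range 9.34 to 9.91). With rCPS1, 11 of its 14 genes were higher. Within it the scavenger receptor gene Marco differed by 0.41 ± 0.21 (0.26 without rTF replicate 2), the lysozyme gene Lyz2 by -0.32 ± 0.11 and Cd68 by -0.15 ± 0.14.

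Neutrophil genes were lower in 10 of 10 cases (against 54.4% of all genes), with a median of -1.08, and with -1.06 without rTF replicate 2. As with the members, the list mean was highest in rTF replicate 2 (6.71), and 5 of its 10 genes had their highest value there, against 19.9% of all genes. The mean ran from 5.88 to 6.71 with rTF and from 4.75 to 5.57 with rCPS1, so the groups did not overlap. Leaving out rTF replicate 2, the highest array, could not change that. Among them S100a9, a subunit of calprotectin, differed by -1.13 ± 0.26 (SE), the chemokine receptor gene Cxcr2 by -1.52 ± 0.36 and Csf3r by -0.52 ± 0.13, each with an adjusted p of 0.862 in limma. The 11 sinusoidal endothelial genes had a mean of 11.41 ± 0.14 in the rTF group and 11.43 ± 0.071 in the rCPS1 group (SD, n = 4 each). In that list Lyve1 differed by -0.28 ± 0.20 (SE), Stab2 by 0.12 ± 0.12 and Pecam1 by 0.12 ± 0.10. Hepatocyte genes had means that differed by -0.055, with Fgb at -0.51 ± 0.35 (SE), Tat at 0.44 ± 0.33 and Cps1 at 0.36 ± 0.24 (0.23 without rTF replicate 2). The part of these cell types in the T-cell gene levels was not tested.

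**Figure D4:**
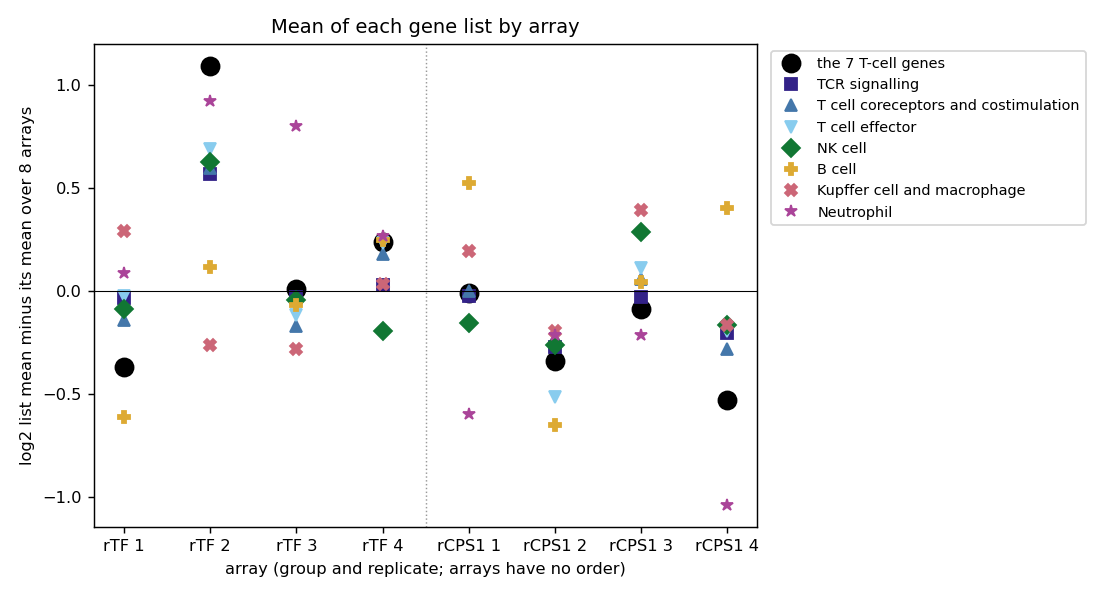
Mean log2 level of gene lists on each array, minus the list's own mean over the 8 arrays (vertical axis). Large black circles are the 7 T-cell genes and arrays run along the horizontal axis. Not drawn are the endothelial and hepatocyte lists and the T cell transcription factor and homing lists. The latter were at 0.53 and 0.38 in rTF replicate 2. In rTF replicate 2 the T-cell genes are at 1.09 and the NK cell, T cell signalling, coreceptor and effector lists between 0.56 and 0.69. The neutrophil list is at 0.92 there and at 0.80 in rTF replicate 3, the B cell list is at 0.11 in rTF replicate 2 and the macrophage list at -0.26.

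The genes whose array pattern was most like the mean of the 7 members were ranked by Pearson r over the 8 arrays among all other named genes, predicted genes aside. The 8 highest were Gramd3 (r = 0.99), Pnrc2 (0.99), Cd27 (0.99), Atad3a (0.98), Zfp58 (0.98), Septin1 (0.98), Defb33 (0.97) and Rab27b (0.97). Of these Cd27, a costimulatory receptor of the TNF receptor family, stood in the T cell lists. Gramd3 was at 5.93, 7.33, 6.30 and 6.53 with rTF and at 6.13, 5.84, 6.18 and 5.66 with rCPS1. Cd27 was at 5.62, 7.0, 5.92 and 6.15 with rTF and at 5.97, 5.54, 5.90 and 5.62 with rCPS1. Both peaked in rTF replicate 2, as the members did. Without rTF replicate 2 the r of the 8 genes was 0.87 to 0.98 over 7 arrays, but only 2 of them, Gramd3 and Pnrc2, were still among the 8 genes most alike. The arrays are the same for every gene, and genes were picked as the most alike of all, so the values describe these arrays alone.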

How the data were processed

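The data are 8 Affymetrix arrays, with biotinylated cDNA made from 400 ng of total RNA, per the labels' protocols. The deposited values are log2 expression levels that the authors made with RMA, per the submitters' processing notes, which also name limma and give no versions. RMA brings arrays to a common distribution, which hides any shift shared by most genes. The isolation of the macrophages and its time after acetaminophen are not given in the sources used here. The number of arrays limits the precision.

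Of 41345 array rows, 23521 had exactly 1 gene symbol, 1814 several and 16010 none; 23328 matched the RefSeq gene table (GRCm38.p6) by Entrez ID, which changed 0 symbols. For a gene with several rows the row of highest mean stood for it, and all 22180 genes entered the fit without a filter on low levels. Samples were grouped by title. The group comparison used limma 3.58.1 under R 4.3.3 (lmFit and eBayes, two-sided, without covariates), with Benjamini-Hochberg adjustment over all genes at 0.05. The fit was tested on simulated data. Members and gene lists were chosen with earlier results of these data known. The text names all members, the 3 genes of smallest p in each other list and the 8 genes most like the members' mean, leaving out predicted (Gm and Rik) genes; Cd4, Cd8b1, Foxp3, Clec4f and Csf1r were named after their values were seen. Same-numbered arrays had deviations that correlated at -0.12 to 0.025, so the numbers were not treated as pairs. Alternatives were a filter on dim rows, trended and robust variance, array weights, quantile normalization, the replicate number as a block, the mean of a gene's rows, and each array left out in turn. Promoter windows are RefSeq sequences, held for 7 of the 9 named genes.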

Additional observations from a re-analysis of the deposited data

Results flagged for a closer look

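Dixon's ratio was taken at both ends of every group of 4 arrays, for the genes named and the list means. An array stood apart in 6 of 120 groups, and 6 are expected at 1 in 20. In rTF replicate 2 the mean of the T cell signalling list was at 6.95 (other rTF arrays 6.35 to 6.42). Septin1 was at 7.34 there (6.0 to 6.22) and Nkg7 at 8.23 (7.26 to 7.32). In rTF replicate 1 Ebf1 was at 4.55 (5.62 to 5.76). For rCPS1 replicate 4 the mean of the hepatocyte list was 7.04 (7.53 to 7.63) and the Ccl5 level 9.89 (9.82 to 9.83). No array stood apart by this ratio for any of the 7 members.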

How the results depend on the processing

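All 98 values of single members under the alternatives stayed below 0, and none had an adjusted p under 0.05 in limma (lowest 0.707, without rTF replicate 1). With the dim-row filter, the trended variance, the replicate block and the mean of a gene's rows, these differences had to equal the main ones. Those settings could move only the SE and the p-values, so their signs add nothing. The count of genes with an adjusted p under 0.05 was 0 in every alternative run. The filter on dim rows kept all 7 members. With the replicate number as a block the median difference of the members was -0.45, Cd5 alone kept an unadjusted p under 0.05, and 0 genes passed; the numbers did not pair the samples. Quantile normalization gave a median of -0.49 and array weights -0.39. With each array left out in turn the median was -0.68 without rTF replicate 1, its farthest from 0, and -0.16 without rTF replicate 2, its nearest. The number of members with an unadjusted p under 0.05, 1 over all arrays, ran from 0 to 3. It was 3 without rTF replicate 1 and 0 when any 1 of the other 7 arrays was left out.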
